A study of Lactuca sativa var. capitata with 10 samples.

Results

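In roots of chitin-treated lettuce, 137 abundant transcripts stood at 22.7% to 49.9% of their control level, out of 38293 genes in the count table. The 137 genes were selected on measured values of these same libraries. A gene was taken when its mean in control pools was at least 20 CPM (the count of a gene divided by the total count of its library and scaled to 1000000), when its highest PS+CH pool lay below its lowest PS pool, and when its PS+CH mean was at most 0.5 of its PS mean. The gene for Peroxidase 12 (LSAT_6X101780) met these criteria as well and was left out. Since the rule used the difference between the treatments, every value of that difference among the 137 genes is a description and was not tested.

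Roots were compared between PS+CH, potting soil amended with 2 g crab chitin per L, and PS, the same peat-based soil without chitin. Both treatments used wild-type butterhead lettuce of the cultivar 'Alexandria', transplanted as seedlings and grown in a greenhouse without strict climate control. Roots were collected at 72 hours post-transplanting (hpt), and each treatment had 5 pools of 5 randomly selected plants. The reads were aligned to the genome of another cultivar, 'Salinas', and total counts per library lay between 17624520 and 18545790. In RNA of whole roots, fewer cells of a type and less RNA per cell cannot be told apart.

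Chitin is a polymer of N-acetylglucosamine that forms the shells of crabs and part of the walls of fungi. Plants sense its fragments at the cell surface through receptors with LysM domains, known in Arabidopsis as LYK5 and CERK1, and answer with reactive oxygen, defense proteins and changes in phenolic metabolism. In soil, chitin is also degraded by microbes, which release nitrogen. None of the 137 locus tags has a name in the count table, in the primer list of the study or in the gene table of the Salinas v11 assembly that was at hand, in which 0 of the 137 tags were found. The genes are therefore described here by level, pool and position, and only 2 of them by their tag, the gene with the highest PS mean and the gene with the lowest share of its PS mean left. For the same reason the root tissue could not be checked against named marker genes, and no sequence is shown.

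Together the 137 genes took 4910, 4300, 7105, 5588 and 5983 CPM in PS+CH replicates 1 to 5, against 10862, 11987, 20428, 13254 and 11409 CPM in PS replicates 1 to 5. The sums of the treatments did not overlap, as the rule made certain, and PS replicate 3 lay far above the other control pools. In PS+CH the sum averaged 5577 ± 1070 CPM and in PS 13588 ± 3926 CPM (SD, n = 5 each), so that PS+CH had 41.0% of the PS sum. As a share of all counts, the genes held 0.43% to 0.711% of a PS+CH library and 1.09% to 2.04% of a PS library. Without PS replicate 3, PS+CH had a ratio of 0.47 to the PS sum, and without the 5 genes with the highest PS mean the ratio was 0.41. Few genes carried much of the sum, since the 10 with the highest PS mean made up 40.5% of it in PS+CH and 39.6% in PS.

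The gene with the highest PS mean, LSAT_5X170741, had 279, 187, 320, 373 and 328 CPM in PS+CH replicates 1 to 5, against 806, 575, 1010, 828 and 707 CPM in PS replicates 1 to 5. Every PS+CH pool was at least 1.54-fold below every PS pool. It averaged 298 ± 70.0 CPM in PS+CH and 785 ± 160 CPM in PS (SD, n = 5 each), and the log2-fold change in the edgeR fit was -1.31 (standard error 0.18). CPM are not divided by the length of a gene, so that this order is one of read numbers and not of transcript numbers.

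The next gene in this order had nearly the same means, 294 ± 78.1 CPM in PS+CH and 783 ± 326 CPM in PS (SD, n = 5 each), but another course over the pools. It had 219, 245, 373, 249 and 384 CPM in PS+CH, against 469, 706, 1306, 855 and 579 CPM in PS. Its PS pools thus spread over a wider range than those of LSAT_5X170741, with PS replicate 3 at the top in both genes. The gene after it had 314, 268, 398, 355 and 341 CPM in PS+CH, against 592, 595, 936, 691 and 758 CPM in PS. With 46.9% of its PS mean left, it lay close to the limit set by the rule.

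The gene with the lowest share left, LSAT_7X112821, had 22.7% of its PS mean in PS+CH. It had 6.07, 2.21, 5.16, 6.79 and 5.53 CPM in PS+CH replicates 1 to 5, against 17.0, 20.4, 41.3, 16.4 and 18.4 CPM in PS replicates 1 to 5. The PS+CH pools held 41 to 126 counts of it and the PS pools 294 to 728. It averaged 5.15 ± 1.76 CPM in PS+CH and 22.7 ± 10.5 CPM in PS (SD, n = 5 each), and its log2-fold change in the edgeR fit was -2.03 (standard error 0.31). PS replicate 3 stood apart, as the other 4 control pools had between 16.4 and 20.4 CPM, near or under the 20 CPM of the rule. Without that pool the log2-fold change was -1.75.

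**Figure D1:**
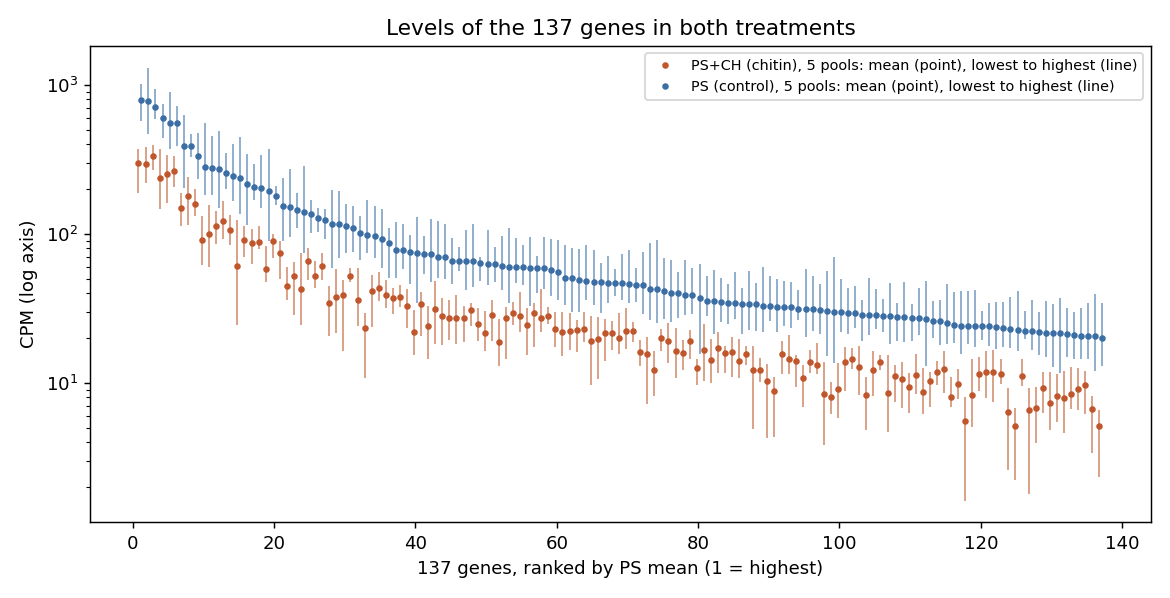
CPM (log axis) of the 137 genes, ranked along the horizontal axis by their PS mean, with PS+CH in orange and PS in blue; points are means of 5 pools and lines run from the lowest to the highest pool. The 2 lines of a gene never overlap, since the rule required this, and PS means run from 20.04 to 785 CPM.

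Over the 137 genes, the mean level had a median of 19.9 CPM in PS+CH, with a range of 5.10 to 335 CPM, and a median of 46.6 CPM in PS, with a range of 20.04 to 785 CPM. In PS+CH, 70 of the genes had a mean under 20 CPM and 12 had a mean of at least 100 CPM, whereas 32 had a mean of at least 100 CPM in PS. The share of the PS mean that was left had a median of 41.6%, and the quartiles were 34.5% and 46.7%. It was under 30% in 15 genes, 30% to 40% in 38, 40% to 45% in 35 and 45% to 50% in 49. Many genes thus stood just inside the limit. The last gene inside had 49.9% of its PS mean, and the first outside had 50.2%.

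The rule capped the share left at 50% at every level in PS, so that close medians follow in part from it. Across classes of this level, the share left had medians between 35.7% and 43.9%. Its median was 39.8% in the 38 genes with a PS mean of 20 to 30 CPM, 42.9% in the 37 genes of 30 to 50 CPM and 43.9% in the 30 genes of 50 to 100 CPM. It was 35.7% in the 14 genes of 100 to 200 CPM and 42.3% in the 18 genes of 200 CPM and over. These 18 genes alone took 3027 CPM in PS+CH and 7284 CPM in PS. At the lower edge of the rule, the last gene inside had a PS mean of 20.04 CPM, and the first gene outside that met the other criteria had 19.7 CPM.

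The distance between the treatments was narrow in many of the genes. The lowest PS pool was above the highest PS+CH pool by a median factor of 1.26, with a range of 1.00 to 2.54. This factor was under 1.1 in 27 genes, at least 1.5 in 27 and at least 2 in 3. Every PS+CH pool was at or under 50% of the PS mean in 44 of the 137 genes. By pool, this held for 127, 129, 61, 116 and 102 genes in PS+CH replicates 1 to 5, so that PS+CH replicate 3 was the pool in which the genes were least reduced. The factor just inside the rule was 1.00334, and just outside, in a gene with a mean at most 0.5 of PS but overlapping pools, it was 0.998934.

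Pools of one treatment differed from each other in the same direction across most of the 137 genes. Relative to the PS mean of each gene, the median over the genes was 37.5%, 30.9%, 51.8%, 39.6% and 43.8% in PS+CH replicates 1 to 5, and 78.5%, 86.9%, 159%, 93.9% and 81.6% in PS replicates 1 to 5. PS+CH replicate 3 was thus the highest and PS+CH replicate 2 the lowest chitin pool in this median, while PS replicate 3 stood above all other pools. Over the other 9493 genes with a PS mean of at least 20 CPM, the same median lay between 95.9% and 98.6% in PS+CH pools and between 98.3% and 102% in PS pools.

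**Figure D2:**
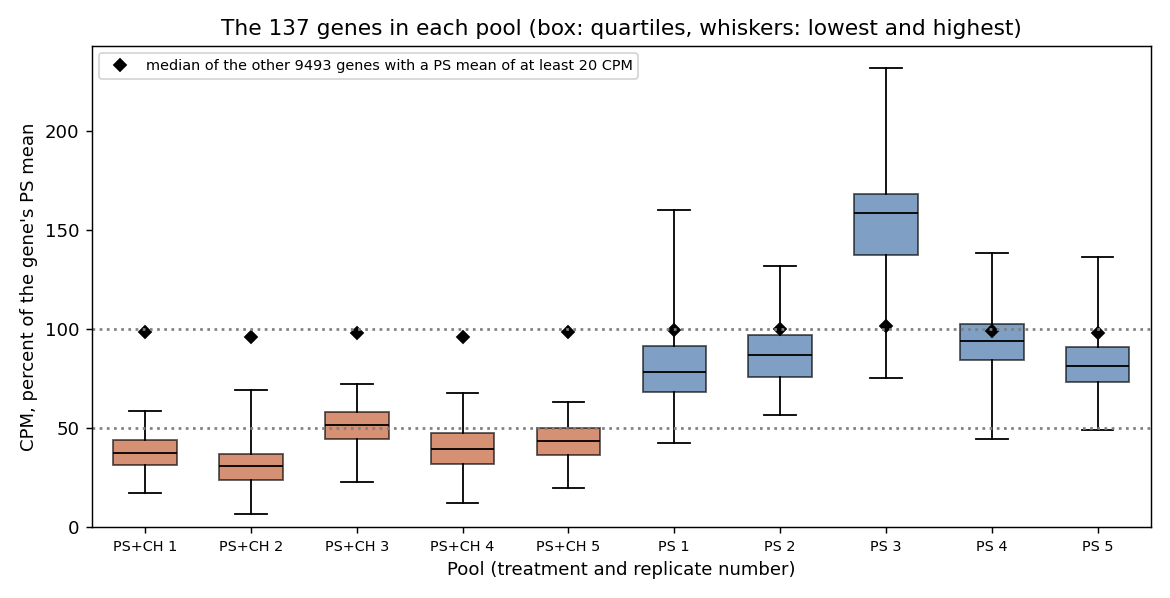
CPM of the 137 genes in each pool as a percentage of the gene's PS mean, with PS+CH pools in orange and PS pools in blue; boxes show quartiles with the median, whiskers the lowest and highest gene, diamonds the median of the other 9493 genes with a PS mean of at least 20 CPM, and dotted lines 50% and 100%. The median of the 137 genes runs from 30.9% to 51.8% in PS+CH pools and reaches 159% in PS replicate 3, while the diamonds stay near 100% in all 10 pools.

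Gene by gene, PS replicate 3 was the highest control pool in 127 of the 137 genes (92.7%), against 34.6% of the other 9493 genes. PS+CH replicate 3 was the highest chitin pool in 86 genes (62.8%, against 20.3% of the others), and PS+CH replicate 2 was the lowest in 88 (64.2%, against 28.4%). All 3 of these held for 51 of the 137 genes (37.2%) and for 4.06% of the others. A high PS replicate 3 raises the PS mean that the rule used, so that these shares are a description. They were also high among 1128 genes of at least 20 CPM whose pools did not overlap but whose PS+CH mean was above 0.5 of the PS mean. PS replicate 3 was the highest control pool in 87.0% of these, and PS+CH replicate 3 the highest chitin pool in 51.3%.

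**Figure D3:**
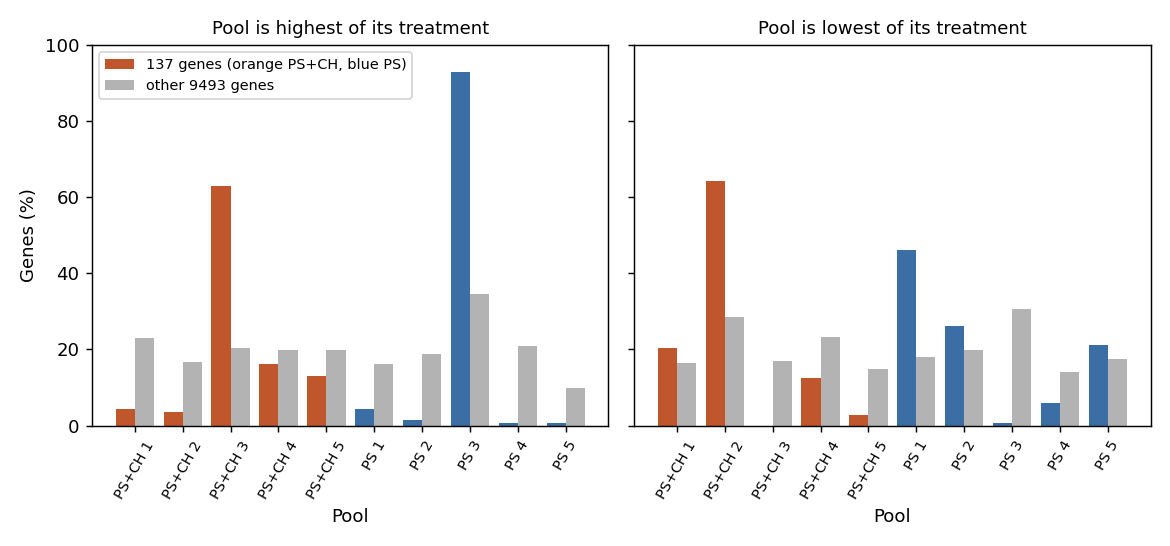
Percentage of genes in which a pool was the highest (left) or the lowest (right) of its treatment, for the 137 genes (orange for PS+CH pools, blue for PS pools) and for the other 9493 genes with a PS mean of at least 20 CPM (grey). PS replicate 3 is the highest control pool in 92.7% of the 137 genes and PS+CH replicate 2 the lowest chitin pool in 64.2%.

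The spread between pools of one treatment was wide in these genes. The coefficient of variation had a median of 25.2% in PS+CH and 35.8% in PS, against 8.45% in PS+CH and 11.6% in PS among the other 9493 genes. When each gene was divided, pool by pool, by the summed CPM of the remaining genes of the set, the median coefficient of variation became 17.2% in PS+CH and 17.1% in PS. It became smaller in 111 of the 137 genes in PS+CH and in 123 in PS. These are the same pool values that the rule used, so that this is a description. The lowest of the 10 counts of a gene had a median of 260 over the 137 genes and was 30 in the gene with the fewest.

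In the other 10 of the 137 genes, another pool than PS replicate 3 was the highest control pool. These genes had a median of 45.7% of the PS mean left, and a median coefficient of variation of 20% in PS+CH and 24.1% in PS. In the 127 genes with PS replicate 3 at the top, 41.5% was left, and the coefficients were 25.9% in PS+CH and 36.9% in PS. The share left and the coefficient in PS both contain the value of PS replicate 3, so that their differences follow in part from the split. One of the 10 was the gene at rank 8 by PS mean, with 153, 114, 240, 202 and 193 CPM in PS+CH, against 330, 379, 422, 468 and 340 CPM in PS. PS replicate 4 was its highest control pool, and 46.5% of its PS mean was left, with 180 ± 48.4 CPM in PS+CH and 388 ± 57.7 CPM in PS (SD, n = 5 each).

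Without PS replicate 3, the PS+CH mean was at most 0.5 of the mean of the other 4 PS pools in 84 of the 137 genes and above it in 53. The highest share left was then 60.9% and the median 48.0%. Applied to the 9 libraries without this pool, the whole rule took 73 genes, 72 of them among the 137. It took 221 genes without PS+CH replicate 3 and 222 without PS replicate 1, and 66 of the 137 genes were taken again whichever single pool was left out. How many genes count as halved thus depended on single pools. The ratio of the summed levels lay between 0.38 and 0.47 with 1 pool left out, and its direction was fixed by the rule.

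Among all 21936 genes tested with edgeR, 643 (2.93%) were called lower in PS+CH, which required a log2-fold change of -1 or less and a Benjamini-Hochberg adjusted p-value below 0.05. Of the 137 genes, 102 were among them, a count that the rule largely fixed. The other 35 had log2-fold changes between -1 and -0.91. With library size only in place of the TMM factors of edgeR, all 137 were called. The TMM factors raised the median log2 ratio of all genes tested by 0.09 relative to column totals, and with TMM-scaled CPM 92 of the 137 genes met the rule. The log2-fold change had a median of -1.17 over the 137 genes, with a range of -2.03 to -0.91, beside a median of 0.00 over all genes tested. Leaving out 1 pool in turn gave medians between -1.23 and -1.003, whose sign the rule fixed. The count of 643 genes was less stable, with 330 genes called lower when PS replicate 3 was left out and 406 when PS+CH replicate 1 was. A larger change, with a replicate block over 8 libraries, is given in the last section.

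Among genes of such levels, lower values in PS+CH were more frequent than higher ones. Of 9631 genes with a PS mean of at least 20 CPM, 1266 had every PS+CH pool below every PS pool (13.1%), and 527 had every PS+CH pool above every PS pool (5.47%). A further 87 genes had a PS+CH mean at most 0.5 of the PS mean but overlapping pools. The counts without overlap use CPM from column totals. With these, the median log2 ratio of all genes tested was -0.0857, against 0.00499 with TMM factors. Such a shift adds to the lower genes and takes from the higher ones, and counts with TMM-scaled CPM are not given. With TMM factors, edgeR called 145 of the 9631 genes lower and 15 higher, at the limits given above for lower genes and their mirror. The mirror image of the rule, with a PS+CH mean of at least 20 CPM, no overlap and a PS mean at most 0.5 of it, took 15 of 9164 genes (0.164%), against 1.42% for the rule itself. In 0 of the 15 genes taken by the mirror rule was PS replicate 3 the highest control pool, against 34.6% of the other 9493 genes. The mirror rule required every PS pool to be low, which tends to leave out genes with a high PS replicate 3. This value is therefore a description.

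With Peroxidase 12 counted in, the share of genes that were halved without overlap was 4.23% in genes with a PS mean of 1 to 5 CPM and 2.89% in genes of 5 to 20 CPM. It was 1.52% at 20 to 50 CPM, 1.16% at 50 to 100 CPM, 1.11% at 100 to 200 CPM and 2.22% (19 of 856 genes) at 200 CPM and over. Genes doubled without overlap made up 0.0752% to 0.335% of the same classes by PS+CH mean. The 386 halved genes of 1 to 20 CPM were taken with the same limits on overlap and ratio, and PS replicate 3 was the highest control pool in 87.0% of them.

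**Figure D4:**
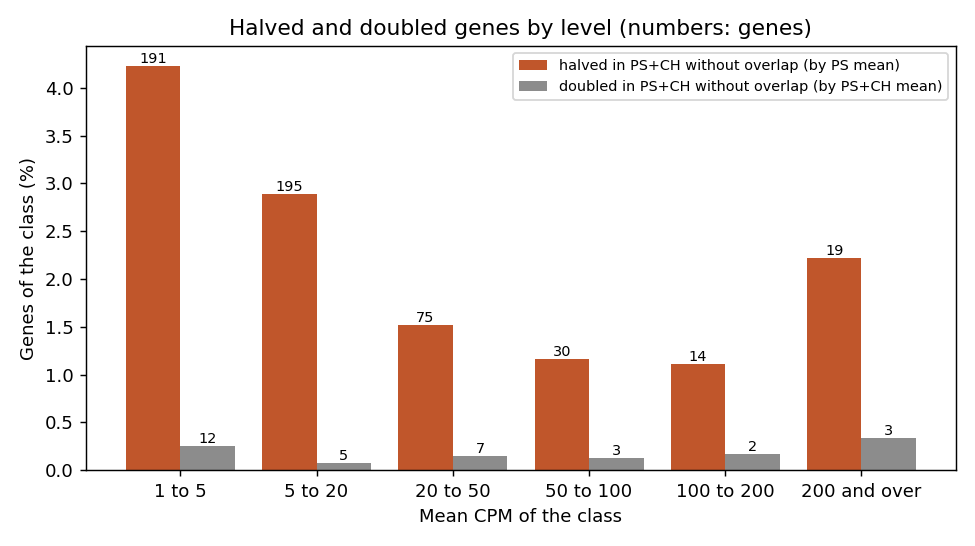
Percentage of genes halved in PS+CH without overlap of the pools (orange, classes by PS mean, Peroxidase 12 included) and doubled without overlap (grey, classes by PS+CH mean), with the number of genes above each bar. Halved genes are the more frequent in each of the 6 classes, with the lowest share, 1.11%, at 100 to 200 CPM.

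The primer list of the study names 31 genes with a locus tag, of which 0 were among the 137. Of these named genes, 8 had a PS mean of at least 20 CPM. The list holds known defense genes and genes picked by the study from its own RNA-Seq result. The 8 therefore do not stand for root genes of such levels. Peroxidase 12, a class III peroxidase of the cell wall family linked to lignin formation, had 106, 76.1, 144, 116 and 121 CPM in PS+CH, against 315, 254, 613, 349 and 279 CPM in PS, and thus shared the high PS replicate 3 and the low PS+CH replicate 2 of the 137 genes. PR2, a pathogenesis related protein, was also lower in every PS+CH pool, but with 60.1% of its PS mean left. It averaged 32.5 ± 5.67 CPM in PS+CH and 54.1 ± 8.08 CPM in PS (SD, n = 5 each).

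Of the 8, 5 were higher in every PS+CH pool than in any PS pool, against 5.47% of the 9631 genes of such levels. The gene for the gibberellin-regulated protein 6 had 175, 185, 188, 157 and 195 CPM in PS+CH, against 97.0, 146, 60.1, 117 and 83.3 CPM in PS. Patellin-3, of a family of membrane trafficking proteins, averaged 749 ± 73.3 CPM in PS+CH and 492 ± 79.7 CPM in PS (SD, n = 5 each). PS replicate 3 was the lowest control pool in 6 of the 8 genes, against 30.7% of the other 9493 genes. It was the highest in 1, Peroxidase 12. The 6 genes include all those that were higher in every PS+CH pool. A low PS replicate 3 lowers the PS mean and so favours the choice of genes higher in PS+CH. The contrast with its high place in the 137 genes may thus follow in part from selection and is a description. Below the 20 CPM of the rule, and singled out after their values were seen, were genes for Peroxidase 11 and Beta-glucosidase 18. The gene for Peroxidase 11 had 3.01, 2.10, 4.14, 4.53 and 4.47 CPM in PS+CH, against 11.03, 12.5, 22.2, 15.4 and 14.6 CPM in PS, which left 24.1% of its PS mean. The gene for Beta-glucosidase 18 had 27.2% left, with 30.6 CPM in PS replicate 3 and at most 14.1 CPM in the other PS pools. PS replicate 3 was the highest pool of both genes. Peroxidase 11 was lower in every PS+CH pool, whereas the pools of Beta-glucosidase 18 overlapped, with 6.64 CPM in PS+CH replicate 3 and 6.02 CPM in PS replicate 1. Of the other primer targets under 20 CPM, the genes for Chalcone synthase 3 and PR1 also had lower means in PS+CH. All others had higher means in PS+CH, several of them at very low counts. Several of these primer targets were picked by the study from its own RNA-Seq result, so that their directions are no independent evidence.

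The 137 genes lay on all 9 chromosomes. The digit before the X of a locus tag gives the chromosome, and the genes numbered 14, 15, 14, 16, 18, 12, 18, 14 and 14 on chromosomes 1 to 9, with 2 more under the digit 0. As a share of the genes with a PS mean of at least 20 CPM, this was 1.13% on chromosome 8, the lowest of the 9, and 2.05% on chromosome 7, the highest. In the order of the tags, 8 of the 137 genes (5.84%) stood directly beside another of them, and 18 (13.1%) had another within 5 tags. Among the 386 halved genes of 1 to 20 CPM, these shares were 7.51% and 14.8%. That set is larger, and in a larger set more genes have a near neighbour by number alone. Shares for sets of 137 genes drawn from all genes were not computed. The values therefore do not show whether close neighbours were more or less frequent than in other sets.

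In 2 places, 3 of the genes stood within 5 tags of each other. On chromosome 1, the 3 genes had means of 27.1, 27.4 and 27.9 CPM in PS+CH, against 58.8, 60.3 and 59.4 CPM in PS. Although their means were so close, their pools differed, since the chitin pools ran from 14.3 to 32.2 CPM in the second gene and from 21.8 to 42.6 CPM in the first. On chromosome 6, the means were 158, 29.4 and 12.2 CPM in PS+CH, against 334, 58.8 and 33.8 CPM in PS. LSAT_5X170741 had a direct neighbour among the 137 genes as well, with 88.9 CPM in PS+CH and 179 CPM in PS. Neighbouring tags are often copies of a gene, and how reads that match several genes were counted is not given in the sources used here, so that single values of such neighbours are uncertain. The 79 other genes of at least 20 CPM that stood directly beside one of the 137 had a median of 91.9% of their PS mean left, against 97.8% over all 9493 other genes. Every PS+CH pool was below every PS pool in 15 of the 79, and in 1128 of all 9493 other genes.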

How the data were processed

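The authors checked the reads with FastQC 0.11.9, aligned them with STAR 2.7.10 to the 'Salinas' genome (v7) and counted them per gene with featureCounts 2.0.1. The authors deposited these counts raw, as whole numbers for each gene. Treatments and replicate numbers came from the sample titles.

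CPM were computed from column totals, as the rule states. The treatments were compared in R 4.3.3 with edgeR 4.0.16, using TMM factors, filterByExpr with a minimum count of 10, the quasi-likelihood test and Benjamini-Hochberg adjustment over 21936 genes. The edgeR comparison was tested on simulated counts, in which no pool was shifted over many genes. The rule and the leaving out of pools were not tested in this way. DESeq2, the tool of the paper, served as an alternative (version 1.42.0), as did other scalings, no filter, replicate blocks, other limits of the rule and leaving out each pool. Genes, lists and tests were chosen with earlier results of these data known. Tags were printed by a rule (highest PS mean, lowest share left, genes named in the primer list). Lists by product name were planned and not run, since no table paired the tags with products; the primer list was split by level only, and its genes are described where the PS mean was at least 20 CPM, with 2 lower ones.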

Additional observations from a re-analysis of the deposited data

Results flagged for a closer look

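The summed CPM of the 137 genes in PS replicate 3 was 20428 CPM, against 10862 to 13254 CPM in the other 4 PS pools, a gap to the nearest pool of 0.75 of the whole range of the group. LSAT_7X112821 had 41.3 CPM in the same pool, against 16.4 to 20.4 CPM in the other PS pools, a gap of 0.837 of the range. A gap over 0.71 is reached by chance in about 1 in 20 groups of 5. It was reached by 37 of the 137 genes in PS, in each case by PS replicate 3, and by 6.51% of the other 9493 genes of at least 20 CPM. In PS+CH it was reached by 13 of the 137 genes, 9 of them through PS+CH replicate 3, and by 4.89% of the others. The rule used the same pool values, and a high PS replicate 3 raises the PS mean and lowers the share left. The gaps of the 137 genes and of LSAT_7X112821 are therefore a description, to which the level by chance does not apply. The total count of PS replicate 3 was 17644457, within the range of the other libraries, and its TMM factor of 1.08 was the highest of the 10; their part in the result was not tested.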

How the results depend on the processing

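Among the 137 genes, the count lower in PS+CH stayed between 69 and 124 when a pool was left out in turn, and was 102 with DESeq2 and 137 with library size only. The median log2-fold change and the ratio of sums (0.38 to 0.47 over the pools left out, 0.44 with TMM-scaled CPM) kept their direction in all alternatives run, which the choice of genes without overlapping pools fixed. The replicate numbers of the titles were not taken as pairs, since no source ties a number to a shared batch and the correlation of deviations was 0.48, 0.45, 0.35, -0.01 and 0.01 for numbers 1 to 5, so that 3 of the 5 same-numbered pairs deviated together and 2 did not. With these numbers as a block, 97 of the 137 genes and 767 genes in all were called lower. With the code numbers of the sample descriptions as a block over 8 libraries, edgeR called 0 genes lower, and 0 of the 137, while 3055 genes and 136 of the 137 had an unadjusted p-value under 0.05 and a lower mean; the log2-fold changes of LSAT_5X170741 and LSAT_7X112821 were then -1.39 and -2.18. Over all genes, 330 to 800 were called lower with 1 pool left out (330 without replicate 3 of PS, 406 without replicate 1 of PS+CH), and 709 by DESeq2. The paper, with DESeq2 and limits of the same values, reported a smaller number of genes lower in roots than the 709 found here. Its log2-fold changes may have been estimated in another way, so that the counts are not known to be like for like. The reason for the smaller number was not tested. The rule took 73 to 222 genes with 1 pool left out. It took 238 with a PS mean of at least 10 CPM, 62 with at least 50 CPM, 53 with a ratio of at most 0.4, 306 with at most 0.6 and 220 when 1 pool could overlap; the number depends on these limits by construction. The cause of the other changes was not tested.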
